A study of Sus scrofa with 8 samples.

Results

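Tibetan pigs kept at 3000 m (TH) and Yorkshire pigs kept at 100 m (YL) are the pair of groups in which each breed was sampled at the altitude where it is normally raised. The comparison rests on 4 heart RNA-seq libraries, TH1, TH2, YL1 and YL2, of the 8 in the study. It covers 10156 of the 18975 genes in the deposited table, those with at least 1 FPKM in at least 2 of TH1, TH2 and YL1. FPKM is the number of fragments scaled to transcript length and to the mapped fragments of the library. Genes whose YL2 value was more than 2 times that of each of the other 7 libraries were left out, because YL2 also held kidney transcripts. At this step 593 of 10749 genes were dropped. *SIKE1* at 1.995 times the highest other library and *TEC* at 1.993 times lay just inside this limit, and *SERPINB1* at 2.004 times lay just outside it.

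All pigs were male and 6 months old, and RNA of 4 pigs was pooled for each library. The 2 libraries of a group therefore differ as pools do, and p-values given here measure only how far pools differ. The other 4 libraries were Tibetan pigs at 100 m (TL) and Yorkshire at 3000 m (YH). TH and YL differ in breed, in altitude and in the farm that goes with the altitude, and these cannot be told apart in TH *vs*. YL. The samples were of heart tissue, with no chamber or cell type separated. In such bulk samples more cells of a type and more RNA per cell cannot be told apart.

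The heart answers stretch and load with a set of secreted peptides and structural genes. Atrial and B-type natriuretic peptides are released from cardiomyocytes under wall tension and act on vessels and kidney through guanylate cyclase receptors. Immediate early genes are transcribed within minutes of a stimulus and fall again quickly, so their RNA records the time just before sampling. Low oxygen is read by prolyl hydroxylases of the EGLN family, which mark the alpha subunits of hypoxia-inducible factors (HIF) for breakdown. Cardiac energy comes mainly from fatty acids oxidized in mitochondria, with glucose and ketone bodies as further fuels.

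Reads on genes ranged from 15687000 to 26723000 per library. The muscle identity of the samples was clear in all 4 libraries, with *TNNT2*, cardiac troponin T, which stood at 7134 and 3833 FPKM for TH, and at 7636 and 2804 for YL. The 39 kidney markers in the table summed to 14125 FPKM in YL2 and to between 46.1 and 61.3 in the other 7 libraries. Uromodulin (*UMOD*), made in the kidney tubule, was at 947 FPKM in YL2, 0.811 in TH2 and 0 in TH1 and YL1. Of the kidney markers, only *PODXL*, also an endothelial gene, is among the 10156 genes. All genes of the mitochondrial chromosome, those not coding for protein included, took 87.6% and 79.2% of summed FPKM in TH and 70.0% and 72.5% in YL. The 13 protein genes among them summed to 1144869 of 8559104 FPKM in TH1 and 590143 of 2829255 in TH2. In YL1 they summed to 974356 of 4017846 FPKM and in YL2 to 330661 of 1563940, so the higher share in TH does not hold for the protein genes. Over the 10156 genes the log2 levels of TH1 and TH2 correlated at r = 0.948 and those of YL1 and YL2 at r = 0.931. Across groups r was 0.897 to 0.931.

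The choice of genes was not even between the groups. All 178 genes at 1 FPKM or more in both TH libraries and under 1 in both YL libraries are included. None of the 145 genes with the reverse pattern can be, since YL2 does not count toward the minimum. Counts of genes lower in TH are therefore low by construction, and the numbers of higher and lower genes are not set against each other. Among the genes called below, *CHI3L1*, *CRTAC1*, *ANXA8*, *UBE2C*, *C2ORF54* and ENSSSCG00000028909 are of the 178 and are included through TH alone. Over the 10156 genes the log2 fold change (log2FC) on log2(FPKM + 1), TH minus YL, had a median of 0.045, with a 10th percentile of -0.554 and a 90th percentile of 0.753. Over all 11913 genes tested the median was -0.013.

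The test called 25 genes between TH and YL hearts, 5 of them with under 20 reads in 3 or more of the 4 libraries. A gene was called at a Benjamini-Hochberg adjusted p under 0.05 in limma over all 11913 genes tested and a log2FC over 1 in size. Of the 10156 genes 20 rose, or 0.197%, and the same 20 are the 0.168% of all genes tested that were called higher. Another 5 fell, where 0.0588% of all genes tested were called lower. At an unadjusted p under 0.05 the numbers were 1106 higher and 473 lower. An exact permutation test of a single gene with 2 libraries against 2 cannot go under p = 0.333, so the calls lean on the spread shared across genes. That spread is estimated over all 4 groups. The limma array weights, lower where the pools of a group differ more, were 0.46 in TH and 0.362 in YL. They were 3.2 in TL and 1.87 in YH. With these weights, or with only the 4 libraries fitted, 4 genes were called higher and 0 lower. The calls also lean on single libraries. Without TH1 there were 3 calls higher and 0 lower, and none of them had 20 reads or more. Without TH2 there were 6 and 1, without YL2 13 and 12, and without YL1 487 and 194.

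A broader description needs no test. In 182 genes, 1.79% of the 10156, both TH libraries lay above both YL libraries by over 1 on the log2(FPKM + 1) scale in all 4 pairs. No other gene tested did, and the same 182 are 1.53% of all genes tested. In 37 genes, 0.364% of the 10156, both TH libraries lay below by over 1, where 0.655% of all genes tested did. Such genes are called apart here. Without regard to size, TH and YL did not overlap in 2347 genes that were higher in TH and 1419 that were lower. These are 23.1% and 14.0% of the 10156 genes, beside 20.2% and 16.0% of all genes tested.

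**Figure D1:**
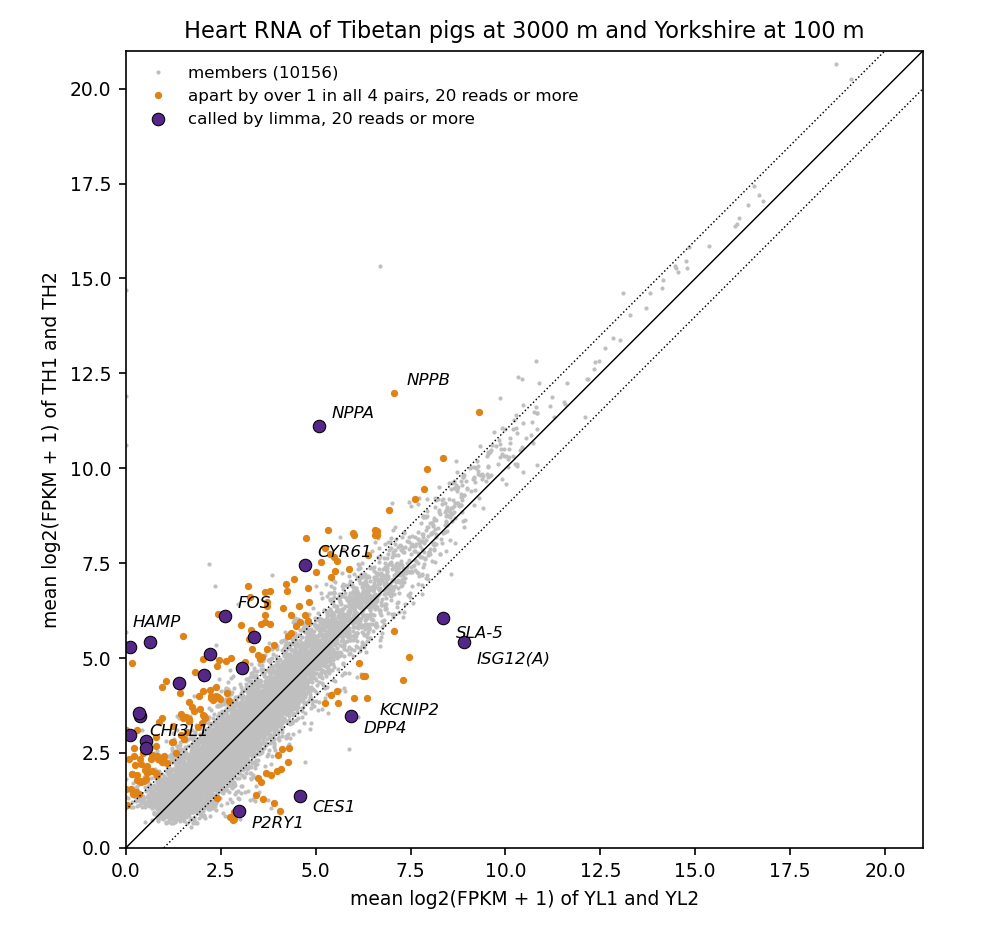
Mean log2(FPKM + 1) of the 2 YL libraries (horizontal) against that of the 2 TH libraries (vertical) for 10156 genes; the solid line marks equal levels and the dotted lines a difference of 1. Purple points are the 20 called genes with at least 20 reads in at least 2 of the 4 libraries, and orange points are genes apart by over 1 in all 4 pairs with such reads. *NPPA* at 11.1 in TH and 5.08 in YL lies farthest from the line among the purple points.

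Of the 20 genes that rose, 15 had at least 20 reads in at least 2 of the 4 libraries. The other 5 were *snoU13*, *snosnR61*, ENSSSCG00000018734, ENSSSCG00000014260 and ENSSSCG00000004579, named after their values were seen. None of them had over 10 reads in any of the 4 libraries. A single read gave *snosnR61* 36765 FPKM in TH1, so these calls rest on almost no reads and are not described further. In all 15 well covered genes both TH libraries also lay above all 6 other libraries, TL and YH included, which held for 10.1% of all genes tested. In all 5 genes that fell both TH libraries lay below the other 6, which held for 8.06% of all genes tested. The genes were chosen for the TH *vs*. YL difference, so part of this is fixed by the choice. Among all genes whose TH and YL libraries do not overlap, it held for 1199 of 2347 higher and 718 of 1419 lower.

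**Figure D2:**
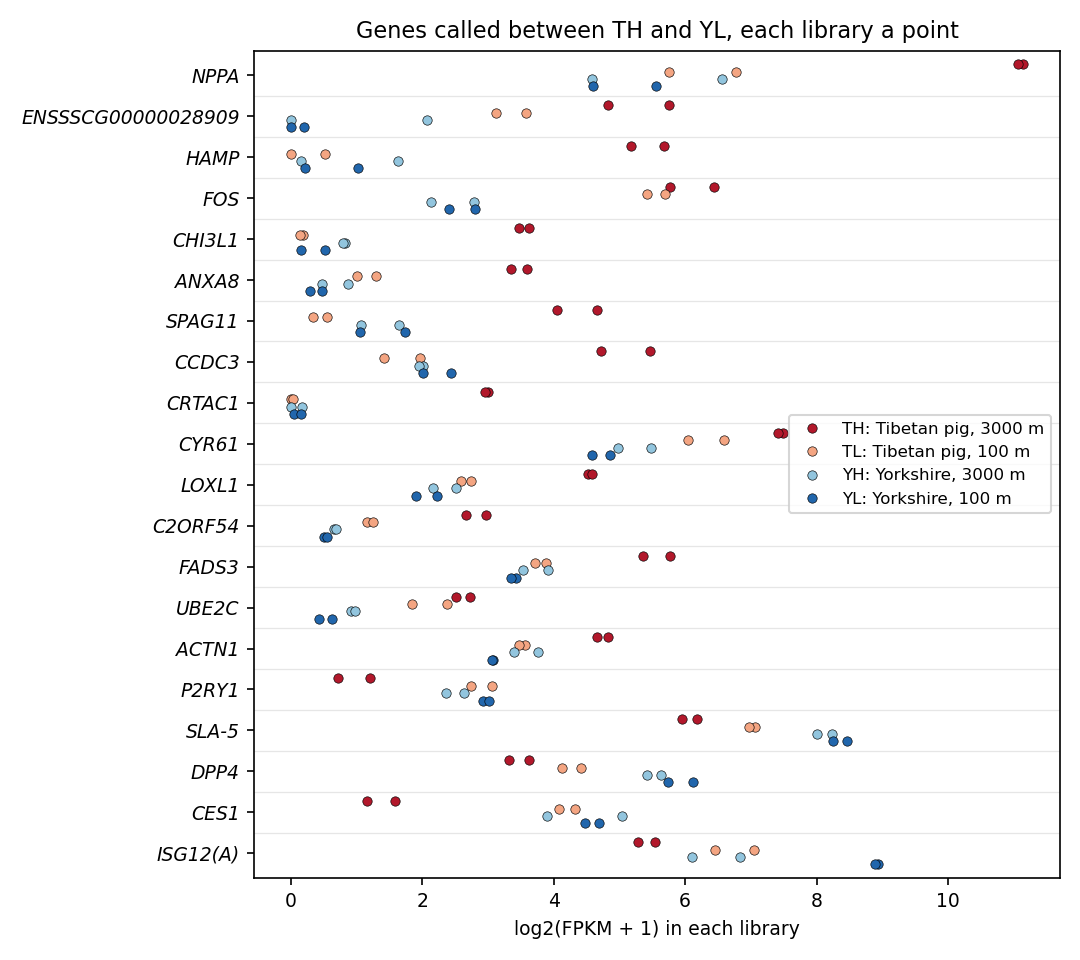
Level of the 20 called genes with at least 20 reads in at least 2 of the 4 libraries, as log2(FPKM + 1), with each of the 8 libraries a point and the groups set apart in height and colour. In the upper 15 genes the TH points lie to the right of all others, and in the lower 5 genes to the left of all others.

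*NPPA*, which encodes atrial natriuretic peptide, had the largest log2FC on log2(FPKM + 1) among the well covered called genes. By the ratio of mean FPKM, where near-zero YL values weigh more, ENSSSCG00000028909, *CRTAC1* and *HAMP* stood higher. Its level was 2263 FPKM in TH1 and 2146 in TH2, against 23.3 in YL1 and 46.3 in YL2. The TH libraries agreed closely and stood 63.3-fold above YL by mean FPKM. The log2FC was 6.02 (SE 0.682, limma adjusted p = 0.0351). The gene lies on chromosome 6 at 65830301-65830859 of Sscrofa10.2. Its neighbour *NPPB*, the gene of B-type natriuretic peptide at 65840060-65841530, was at 4963 and 3264 FPKM in TH and at 278 and 64.3 in YL. The *NPPB* groups do not overlap, but YL1 and YL2 lay further apart from each other, and with a log2FC of 4.90 (SE 1.31) the limma adjusted p was 0.180. In TL and YH *NPPB* ranged from 7.75 to 180 FPKM and *NPPA* from 23.1 to 108, so both peptide genes were far higher in the TH hearts than in the other 3 groups.

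The receptors of these peptides were not called. *NPR1*, the guanylate cyclase that both peptides act on, was at 11.2 and 13.6 FPKM in TH and at 7.35 and 6.42 in YL, a log2FC of 0.76 (limma adjusted p = 0.197). *NPR3*, the clearance receptor, was at 10.3 and 8.83 in TH and at 7.72 and 3.74 in YL (log2FC 0.72, limma adjusted p = 0.345). *FURIN*, a protease that cuts natriuretic propeptides, overlapped between groups at 12.1 and 17.0 against 12.9 and 16.8. Of 9 genes of this pathway 1 rose and none fell, beside 0.168% and 0.0588% of all genes tested. Another count, of genes not overlapping with TH higher, was 4, beside 20.2% of all genes tested. The median log2FC was 0.27 beside 0.045 over all 10156 genes. It was 0.15 without YL2 and 0.66 without YL1.

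Other genes of cardiac load did not pass the test. *CSRP3*, a Z-disc LIM protein that takes part in stretch sensing, was at 7832 and 3786 FPKM in TH and at 2074 and 806 in YL. The groups do not overlap, and the log2FC was 2.07 (limma adjusted p = 0.231). *ACTA1*, skeletal alpha actin that the fetal and loaded heart also expresses, was at 30005 and 21387 in TH and at 13045 and 5833 in YL (log2FC 1.54, limma adjusted p = 0.290). *ANKRD1*, a stretch-induced ankyrin repeat protein, overlapped, at 2935 and 2776 in TH against 3143 in YL1 and 961 in YL2. *MYH6*, the fast cardiac myosin heavy chain, was at 20.6 and 18.4 in TH but at 88.4 in YL1 and 2.60 in YL2, so YL1 and YL2 lay on either side of TH.

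All 12 genes of the cardiac stress list had a log2FC above 0, 8 did not overlap between the groups and 3 were apart, beside 20.2% and 1.53% of all genes tested. Only *NPPA* was called. The median log2FC was 1.52, with 0.87 without YL2 and 2.61 without YL1. YL2 held 2804 FPKM of *TNNT2* where YL1 held 7636, and its part in these values was not tested. The small heat shock proteins, which chaperone the sarcomere, had 5 of 5 genes above 0 and a median of 1.11, which was 0.39 without YL2 and 1.84 without YL1. *CRYAB*, alpha B crystallin, was at 6494 and 4239 FPKM in TH and at 2636 and 717 in YL (log2FC 1.93, limma adjusted p = 0.256). *HSPB8* was at 635 and 486 against 358 and 85.1 (log2FC 1.66, limma adjusted p = 0.312), and *HSPB7* at 3394 and 2131 against 2050 and 753 (log2FC 1.11, limma adjusted p = 0.386). The larger chaperones had a median of 0.16 over 17 genes, with no call, and this turned to -0.07 without YL2 and was 0.50 without YL1.

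*FOS*, a subunit of the AP-1 transcription factor, was at 53.8 and 85.5 FPKM in TH and at 4.30 and 5.98 in YL. Its log2FC was 3.50 (SE 0.333, limma adjusted p = 0.0216), a 13.6-fold difference in mean FPKM. *CYR61*, a matricellular protein switched on by growth factors and by stretch, was at 178 and 170 in TH and at 28.1 and 23.0 in YL. The *CYR61* libraries agreed within each group, and the log2FC was 2.73 (SE 0.286, limma adjusted p = 0.0291). Both genes were called.

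The next members were apart without being called. *CTGF*, a relative of *CYR61*, was at 192 and 176 FPKM in TH and at 28.1 and 42.2 in YL (log2FC 2.38, limma adjusted p = 0.0616). *DUSP1*, a phosphatase that switches off MAP kinases, was at 172 and 232 against 59.0 and 32.0 (log2FC 2.17, limma adjusted p = 0.0849). *NR4A1*, an orphan nuclear receptor, was at 47.3 and 102 against 12.5 and 10.8 (log2FC 2.48, limma adjusted p = 0.111). In each of these the lower TH library was more than 2 times the higher YL library. *ATF3*, a stress-induced transcription factor, was at 38.8 and 50.0 against 13.5 and 5.17 (log2FC 2.25, limma adjusted p = 0.104). *BTG2*, an antiproliferative p53 target, was at 119 and 150 against 42.1 and 9.93 (log2FC 2.64, limma adjusted p = 0.205). *IER3*, a stress-induced survival gene, did not overlap but was not apart, at 132 and 66.3 against 37.5 and 47.4 (log2FC 1.13, limma adjusted p = 0.238).

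Of 22 immediate early genes 2 rose, 11 were apart and 19 did not overlap, all with TH higher. Over all genes tested these shares were 0.168%, 1.53% and 20.2%. The median log2FC was 1.501, beside 0.045 over all 10156 genes, and stayed between 1.58 and 1.73 with any of the 4 libraries left out. *DUSP6*, a MAP kinase phosphatase, and *NOR-1*, a nuclear receptor, had a log2FC below 0 with overlapping libraries, and were named after their values were seen. Levels of the list were higher in both Tibetan pig groups, a difference between breeds that was not tested. Medians of log2(FPKM + 1) came to 4.55 and 4.99 for TH and to 4.92 and 4.94 for TL, but to 2.56 and 3.34 for YH and to 3.49 and 3.13 for YL. Beside the TH values of 53.8 and 85.5 FPKM, *FOS* was at 50.9 and 42.0 in TL and at 3.40 and 5.91 in YH.

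**Figure D3:**
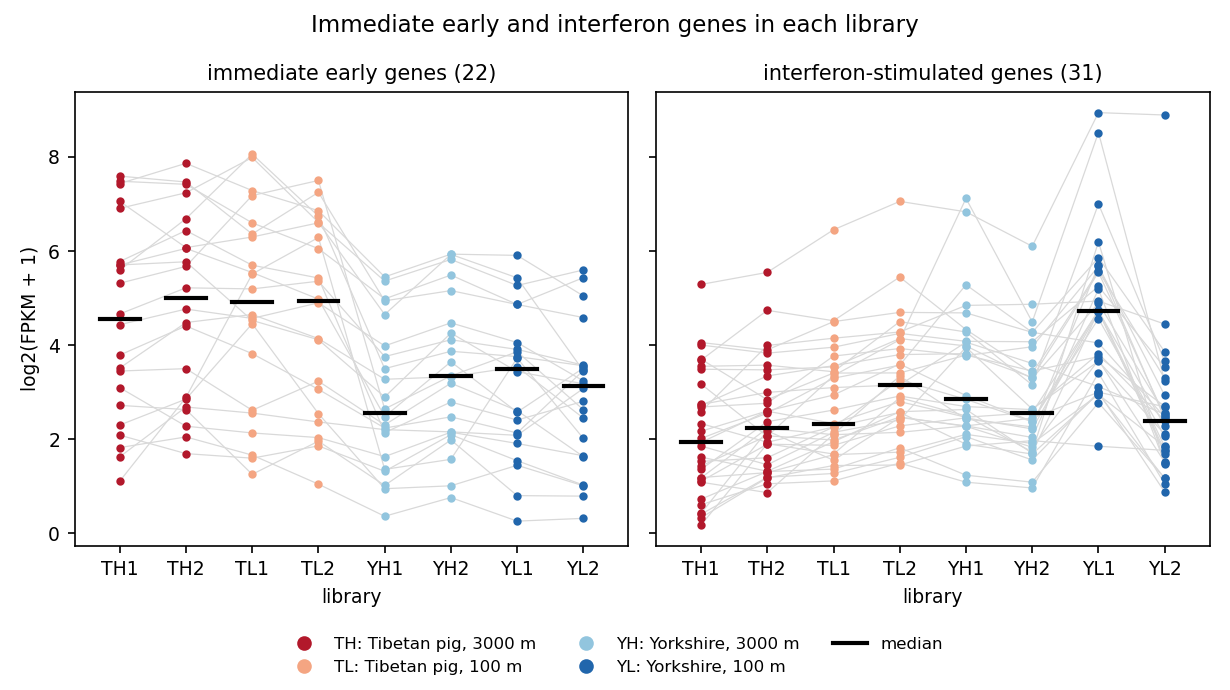
Level of each immediate early gene (left) and interferon-stimulated gene (right) in the 8 libraries, as log2(FPKM + 1), with thin lines joining a gene across libraries and bars at the median. The immediate early medians are 4.55 to 4.99 in the 4 Tibetan pig libraries and 2.56 to 3.49 in the Yorkshire libraries, and the interferon median of YL1, 4.72, stands above those of all other libraries.

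*CHI3L1*, a chitinase-like glycoprotein of inflamed and remodelling tissue, was at 11.3 and 10.1 FPKM in TH and at 0.117 and 0.431 in YL (log2FC 3.21, SE 0.212, limma adjusted p = 0.00485). *CRTAC1*, a cartilage matrix protein, is listed under 2 Ensembl genes. The called one, ENSSSCG00000026089, was at 7.02 and 6.74 in TH and at 0.0356 and 0.118 in YL (log2FC 2.87, SE 0.196, limma adjusted p = 0.00485). *CHI3L1* and this *CRTAC1* entry were nearly silent outside TH, with at most 0.762 FPKM of *CHI3L1* and 0.129 of the *CRTAC1* entry in TL and YH. Both reached 1 FPKM only in TH, so they are included through the group in which they are high. *LOXL1*, which crosslinks elastin, was at 22.0 and 23.0 in TH and at 3.68 and 2.73 in YL (log2FC 2.49, SE 0.224, limma adjusted p = 0.0186).

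*CCDC3*, a secreted protein, was at 25.5 and 43.3 FPKM in TH and at 4.39 and 3.05 in YL (log2FC 2.88, limma adjusted p = 0.0351). *HAMP*, which encodes the iron hormone hepcidin, was at 35.2 and 50.3 in TH and at 1.04 and 0.167 in YL (log2FC 4.80, SE 0.525, limma adjusted p = 0.0330). TL and YH held at most 2.09 FPKM of *HAMP*, so it too was a TH transcript in these hearts. *SPAG11*, a gene of the beta-defensin family with further copies on the same scaffold, was at 24.4 and 15.5 against 2.35 and 1.08 (log2FC 2.95, limma adjusted p = 0.0410). Reads of near-identical copies may be split between them, and the value is uncertain for that reason.

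Other matrix genes were apart but not called. *BGN*, the proteoglycan biglycan, was at 258 and 178 FPKM in TH and at 43.5 and 38.5 in YL (log2FC 2.36, limma adjusted p = 0.0616). *CD44*, the hyaluronan receptor, was at 75.5 and 81.1 against 17.0 and 16.0 (log2FC 2.18, limma adjusted p = 0.134). Of 37 matrix genes outside the collagens 3 rose and 9 were apart with TH higher, beside 0.168% and 1.53% of all genes tested. Of the 3, *CHI3L1* and *CRTAC1* reached 1 FPKM only in TH, so these counts are partly fixed by the choice of genes. In this list 31 genes had a log2FC above 0 and the median was 0.57. It was 1.501 without TH1 and 0.31 without TH2. Among the TGF-beta ligands, *TGFB2* was at 91.0 and 73.2 FPKM in TH and at 17.5 and 29.0 in YL (log2FC 1.81, limma adjusted p = 0.195), and *TGFB1* at 38.4 and 22.0 against 19.8 and 11.2 (log2FC 0.92, limma adjusted p = 0.294). Of 19 TGF-beta pathway genes none were called, 3 were apart with TH higher, beside 1.53% of all genes tested, and the median was 0.34, or 0.21 without YL1 and 0.53 without TH1.

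Collagen genes differed in how far the TH libraries lay apart. *COL1A1* was at 43.3 FPKM in TH1 and 192 in TH2, against 34.6 and 47.8 in YL (log2FC 1.15, limma adjusted p = 0.461). *COL3A1*, the fibrillar collagen of soft tissue, was at 18.2 in TH1, 172 in TH2, 41.0 in YL1 and 36.8 in YL2, so its log2FC of 0.53 (limma adjusted p = 0.797) is the mean of pools on opposite sides of YL. *COL1A2*, the partner chain of *COL1A1*, did not overlap, at 32.7 and 56.6 in TH and at 15.4 and 16.5 in YL (log2FC 1.38, limma adjusted p = 0.130). The basement membrane collagens *COL15A1* and *COL4A2* did not overlap either. *COL15A1* was at 55.3 and 43.7 in TH and at 20.6 and 18.4 in YL (log2FC 1.29, limma adjusted p = 0.0817), and *COL4A2* at 114 and 131 against 59.7 and 45.3 (log2FC 1.22, limma adjusted p = 0.121). All 18 collagen genes had a log2FC above 0, 9 did not overlap, beside 20.2% of all genes tested, and none was called. Their median of 0.98 became 1.77 without TH1 and 0.13 without TH2.

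*ACTN1*, the alpha actinin of non-muscle cells, was at 24.3 and 27.3 FPKM in TH and at 7.44 and 7.38 in YL (log2FC 1.67, SE 0.209, limma adjusted p = 0.0478). *PDLIM3*, a Z-disc protein that binds alpha actinin, was at 236 and 351 in TH and at 30.7 and 21.9 in YL, a larger log2FC of 3.43 with a larger error (SE 0.595, limma adjusted p = 0.0907). *FLNC*, the muscle filamin, was at 498 and 462 against 208 and 70.6 (log2FC 1.97, limma adjusted p = 0.276). Of 24 Z-disc and scaffold genes 1 rose and 3 were apart with TH higher, beside 0.168% and 1.53% of all genes tested. The median of 0.54 was 0.09 without YL2 and 0.93 without YL1. *ANXA8*, a calcium-dependent membrane-binding protein, was at 11.1 and 9.24 in TH and at 0.388 and 0.224 in YL (log2FC 3.09, SE 0.239, limma adjusted p = 0.00935).

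*ANXA2*, which forms a complex with *S100A10*, was at 355 and 275 FPKM in TH and at 74.2 and 52.7 in YL (log2FC 2.30, limma adjusted p = 0.0827). Its partner *S100A10* was at 408 and 202 against 72.5 and 135 (log2FC 1.53, limma adjusted p = 0.252). *ANXA5* was at 143 and 181 against 68.8 and 49.1 (log2FC 1.45, limma adjusted p = 0.122). Of 17 annexin and S100 genes 1 rose and 4 were apart with TH higher, beside 0.168% and 1.53% of all genes tested. The median was 0.56, or 1.16 without YL2 and 0.95 without TH1.

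The remaining genes that rose have various roles. *FADS3*, a member of the fatty acid desaturase family, was at 53.4 and 40.0 FPKM in TH and at 9.76 and 9.19 in YL (log2FC 2.17, limma adjusted p = 0.0330). *UBE2C*, a ubiquitin-conjugating enzyme of mitotic exit, was at 5.63 and 4.74 against 0.544 and 0.340 (log2FC 2.102, limma adjusted p = 0.0403). *C2ORF54*, of unsettled function, was at 6.82 and 5.36 against 0.420 and 0.462 (log2FC 2.29, limma adjusted p = 0.0186). ENSSSCG00000028909 has no symbol in the table and was at 53.1 and 27.5 in TH, 0 in YL1 and 0.147 in YL2, with 233 and 100 reads against 0 and 1. Its log2FC of 5.20 (limma adjusted p = 0.0480) depends on the pseudocount. Apart but not called were 2 more genes of the naming rule. *CCL2*, which attracts monocytes, was at 156 and 91.2 against 8.63 and 8.02 (log2FC 3.69, limma adjusted p = 0.0926). *SLPI*, a protease inhibitor of mucosa, was at 135 and 113 against 14.0 and 22.5 (log2FC 2.73, limma adjusted p = 0.0557).

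Globin RNA is carried by red cells in the tissue. *HBA* was at 1376 and 745 FPKM in TH and at 256 and 231 in YL (log2FC 2.05, limma adjusted p = 0.0907). *HBB* was at 1708 and 876 against 374 and 290 (log2FC 1.89, limma adjusted p = 0.104), and *HBM*, a minor alpha-like globin, at 15.1 and 6.43 against 2.16 and 1.80 (log2FC 1.88, limma adjusted p = 0.101). *ALAS2*, the erythroid enzyme of heme synthesis, was at 4.40 and 3.93 against 1.34 and 1.52 (log2FC 1.09, limma adjusted p = 0.105). The groups do not overlap in any of these genes, and none of the 6 blood markers was called. The median of the 6 was 1.55, and summed blood marker FPKM was 3157 and 1656 in TH, 670 and 549 in YL, and 1052 to 1441 in TL and YH. How much of any other difference goes with blood in the tissue was not tested.

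The 5 genes that fell were *ISG12(A)*, *CES1*, *DPP4*, *SLA-5* and *P2RY1*. *ISG12(A)*, an interferon-induced gene of the inner mitochondrial membrane, was at 38.1 and 45.7 FPKM in TH and at 491 and 474 in YL. Its log2FC was -3.50 (SE 0.331, limma adjusted p = 0.0216), and TL and YH lay in between at 67.6 to 132. *SLA-5*, a class I gene of the swine major histocompatibility complex on chromosome 7 at 24683604-24687412, was at 71.3 and 60.9 in TH and at 351 and 304 in YL. The log2FC was -2.29 (SE 0.231, limma adjusted p = 0.0240). Its levels stepped from TH through TL at 133 and 125 and YH at 255 and 299 to YL. Class I genes resemble each other closely and vary between breeds, so reads may be shared or lost between them and the value is uncertain.

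*DPP4*, a dipeptidyl peptidase that cleaves incretins and chemokines, was at 11.3 and 9.01 FPKM in TH and at 52.3 and 68.4 in YL (log2FC -2.45, SE 0.243, limma adjusted p = 0.0234). It was at 16.5 and 20.3 in TL and at 41.9 and 48.9 in YH, so the breeds did not overlap at either altitude. *CES1*, a carboxylesterase, was at 1.24 and 2.01 in TH against 21.2 and 24.8 in YL (log2FC -3.20, SE 0.386, limma adjusted p = 0.0424). Both genes are also expressed in kidney. The part of the kidney transcripts in their YL2 values was not tested. The *CES1* locus on chromosome 6 spans 27276810-27380644 and holds 2 more genes of the table, so its reads may be shared with copies beside it. *P2RY1*, an ADP receptor, was at 0.639 and 1.31 against 6.63 and 7.07 (log2FC -2.01, SE 0.251, limma adjusted p = 0.0478).

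Among the genes apart with TH lower, *KCNIP2*, a subunit of the channel that carries the transient outward potassium current, was at 15.2 and 13.5 FPKM in TH and at 134 and 48.6 in YL. The log2FC was -2.41 (SE 0.482, limma adjusted p = 0.105). All 4 TL and YH libraries, at 78.4 to 163, were far above TH as well. It was the only one of 16 cardiac ion channel genes apart with TH lower, beside 0.655% of all genes tested. Of the 16, 3 did not overlap with TH higher and 1 with TH lower, beside 20.2% and 16.0% of all genes tested. A log2FC above 0 was found in 13 of the 16. The median of 0.42 turned to -0.09 without YL2 and was 0.87 without YL1. *MGST2*, a microsomal glutathione transferase, was at 18.3 and 11.4 against 77.1 and 52.6 (log2FC -2.06, limma adjusted p = 0.0926). *RER1*, which returns proteins to the endoplasmic reticulum, was at 3.16 and 3.33 against 14.8 and 17.4 (log2FC -2.00, limma adjusted p = 0.0926).

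*GNLY*, granulysin of cytotoxic lymphocytes, was at 1.17 and 1.39 FPKM in TH and at 19.2 and 9.86 in YL (log2FC -2.70, limma adjusted p = 0.0590). TL and YH held 10.6 to 20.5, so TH alone was low. The immunoglobulin light chain *IGLC* was at 38.8 and 25.9 in TH and at 203 and 152 in YL (log2FC -2.43, limma adjusted p = 0.0557), and *IGKC* at 21.7 and 19.5 against 303 and 80.4 (log2FC -2.87, limma adjusted p = 0.172). Of 28 lymphocyte markers listed, 23 were under the level required here and 1 was dropped for its YL2 value. The other 4 did not overlap with TH lower, beside 16.0% of all genes tested, and their median log2FC was -0.69. In *KLRB1*, at 2.82 in both TH2 and YL2 after rounding, and in *NKG7*, at 4.96 in TH2 and 5.07 in YL2, the gap was very small. Summed lymphocyte marker FPKM was 18.0 and 19.7 in TH and 37.1 and 43.4 in YL. It was 28.0 and 33.6 in TL and 63.0 and 71.2 in YH, so YH was the highest group.

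*CXCL10*, an interferon-induced chemokine, was at 8.01 and 3.17 FPKM in TH, 366 in YL1 and 8.42 in YL2 (log2FC -3.26, limma adjusted p = 0.399). *ISG15*, a ubiquitin-like modifier, was at 10.7 and 10.9 in TH, 127 in YL1 and 11.6 in YL2 (log2FC -1.76, limma adjusted p = 0.452). *IRG6*, an antiviral enzyme also named RSAD2, was at 0.126 and 2.74 in TH, 72.3 in YL1 and 1.77 in YL2 (log2FC -2.80, limma adjusted p = 0.402). YL2 lay close to TH in these 3 genes. Besides *ISG12(A)*, only *MX1*, an antiviral GTPase named after its values were seen, was apart, at 1.12 and 0.818 in TH, 50.7 in YL1 and 4.41 in YL2 (log2FC -3.09, limma adjusted p = 0.225). Of 31 interferon-stimulated genes 1 fell, 2 were apart, 12 did not overlap and 29 had a log2FC below 0. Over all genes tested 0.0588% were called lower, 0.655% were apart and 16.0% did not overlap with TH lower. The median of -1.14 became -2.00 without YL2 and -0.18 without YL1.

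Complement C1q is made by tissue macrophages. *C1QA* was at 4.49 and 13.1 FPKM in TH and at 34.3 and 22.9 in YL (log2FC -1.73, limma adjusted p = 0.161), and *C1QC* at 6.17 and 20.4 against 45.6 and 22.9 (log2FC -1.43, limma adjusted p = 0.287). *A2M*, a protease inhibitor of plasma, was at 29.0 and 9.15 against 50.9 and 56.1 (log2FC -1.64, limma adjusted p = 0.247). The 14 macrophage and myeloid markers had a median of 0.04, with 7 above 0 and 7 below, and -0.10 without YL2 or 0.20 without TH1. Of 16 genes of the swine major histocompatibility complex and of antigen presentation 1 fell and 7 did not overlap with TH lower, beside 0.0588% and 16.0% of all genes tested. The median was -0.40, or -0.26 without YL1.

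**Figure D4:**
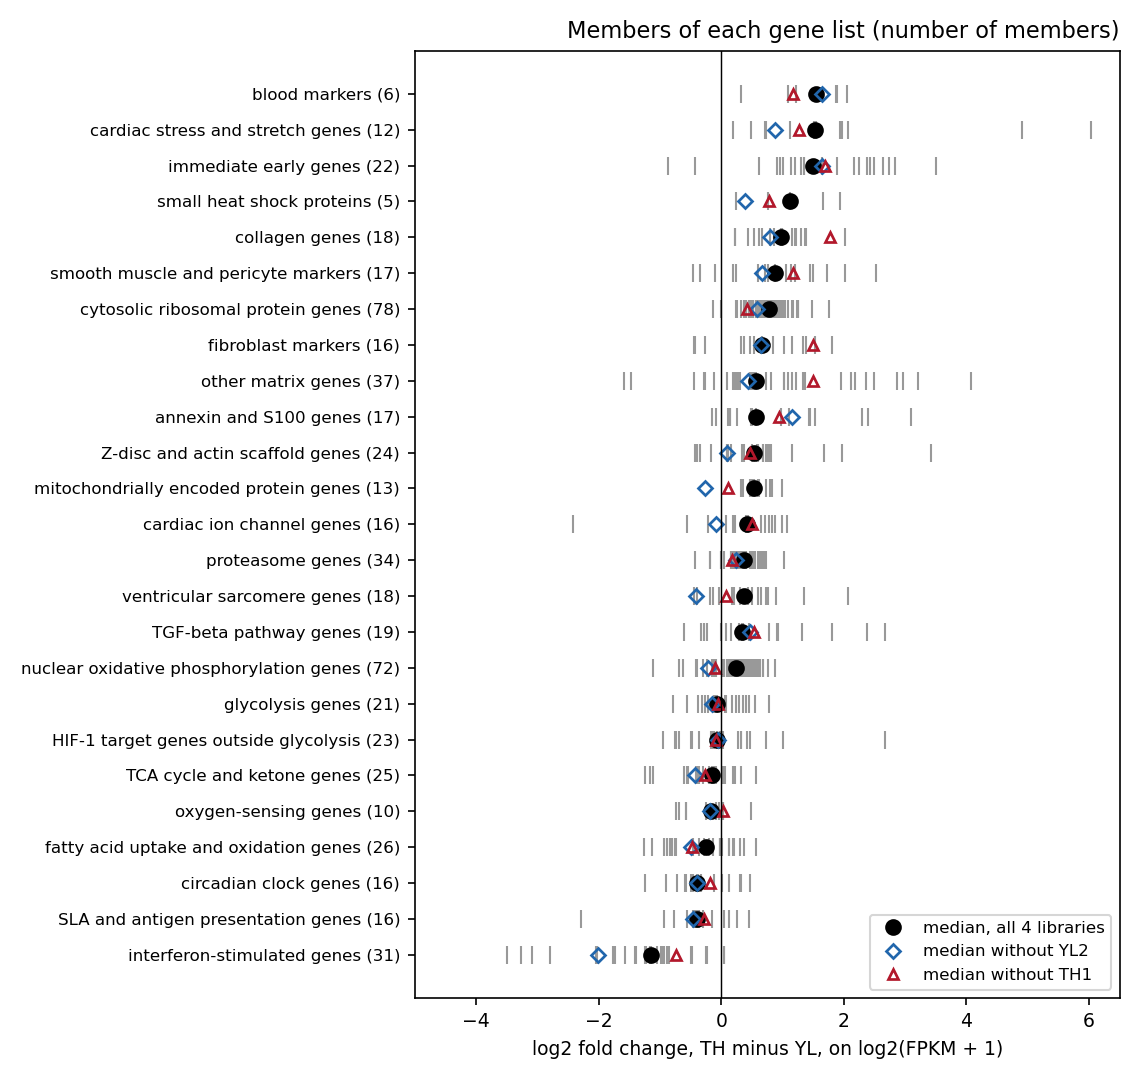
Log2FC, TH minus YL on log2(FPKM + 1), of each member (grey ticks) of 25 gene lists, with the number of members in brackets; black circles are medians over all 4 libraries, blue diamonds medians without YL2 and red triangles medians without TH1. The immediate early median is 1.501, 1.640 and 1.692 in turn, whereas the nuclear oxidative phosphorylation median moves from 0.24 to -0.21 without YL2.

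None of 26 genes of fatty acid uptake and oxidation was called. *DECR1*, which handles unsaturated fatty acids in mitochondria, was the only one apart, at 29.7 and 27.2 FPKM in TH and at 70.5 and 68.3 in YL (log2FC -1.26, SE 0.239, limma adjusted p = 0.0973). Of the 26 genes 12 did not overlap with TH lower, beside 16.0% of all genes tested, and 0 did not overlap with TH higher. The median of -0.24 was -0.49 without YL2 and -0.005 without TH2. *HADHA*, a subunit of the trifunctional protein, was at 301 and 172 in TH and at 356 and 214 in YL, and *CD36*, a fatty acid transporter, at 208 and 287 against 328 and 109. Both overlapped.

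Of 25 genes of the TCA cycle and ketone use 7 did not overlap with TH lower, beside 16.0% of all genes tested, and 0 with TH higher. The median of -0.15 was -0.43 without YL2 and turned to 0.10 without YL1. *PDHA1*, a subunit of pyruvate dehydrogenase, was at 240 and 214 FPKM in TH and at 396 and 302 in YL (log2FC -0.61, limma adjusted p = 0.340). *ADHFE1*, a mitochondrial transhydrogenase of hydroxybutyrate, was at 21.4 and 22.6 against 54.7 and 101 (log2FC -1.71, limma adjusted p = 0.0914). *PRDX3*, the mitochondrial peroxiredoxin, was at 133 and 111 against 211 and 234 (log2FC -0.86, limma adjusted p = 0.167). It is from a list of 20 antioxidant genes, of which 13 had a log2FC above 0, with a median of 0.22. In that list 7 genes did not overlap with TH higher and 4 with TH lower, beside 20.2% and 16.0% of all genes tested. *CKM*, muscle creatine kinase, was at 1300 and 917 against 2745 in YL1 and 1226 in YL2, which overlap (log2FC -0.75, limma adjusted p = 0.466).

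Of 72 nuclear genes of oxidative phosphorylation 60 had a log2FC above 0, but only 1 did not overlap with TH higher and 4 with TH lower, beside 20.2% and 16.0% of all genes tested. The median of 0.24 turned to -0.21 without YL2 and to -0.10 without TH1, and was 0.75 without YL1. All 13 mitochondrially encoded protein genes had a log2FC above 0 with overlapping libraries, and their median of 0.54 turned to -0.26 without YL2 and was 1.38 without YL1. Glycolysis genes had a median of -0.07 over 21 genes with no call, or -0.15 without YL2 and 0.41 without YL1. *GAPDH* was at 9930 and 5351 FPKM in TH and at 8467 and 3808 in YL.

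Of 78 cytosolic ribosomal protein genes 77 had a log2FC above 0 and 66 did not overlap, beside 20.2% of all genes tested. *RPS12* was at 3120 and 1948 FPKM in TH and at 1323 and 1098 in YL (log2FC 1.03, limma adjusted p = 0.253). None was called, and the median was 0.79. It was 0.41 without TH1 and 1.17 without TH2, and with each library scaled to the same FPKM sum, which lowered the median of all 10156 genes by 0.57 to -0.52, it was -0.17. The 34 proteasome genes had a median of 0.38 with 16 not overlapping with TH higher, beside 20.2% of all genes tested. The median was 0.17 without TH1 and 0.58 without TH2.

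*EPAS1*, the HIF-2 alpha subunit, was at 37.7 and 57.6 FPKM in TH and at 55.2 and 44.6 in YL. *HIF1A* was at 3.02 in TH1 and 14.4 in TH2, against 6.11 and 11.2. *EGLN1* was at 24.0 and 25.3 against 27.9 and 21.0. All of these overlapped between the groups. *EGLN3*, a prolyl hydroxylase that HIF itself induces, was at 35.2 and 29.2 in TH, 79.7 in YL1 and 34.5 in YL2 (log2FC -0.70, limma adjusted p = 0.458). *CITED2*, a HIF target that restrains HIF, was at 16.6 and 29.5 against 37.5 and 38.1 (log2FC -0.74, limma adjusted p = 0.348). Of 10 oxygen-sensing genes none was called, and the median of -0.16 turned to 0.03 without TH1 and was -0.47 without TH2.

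Of 23 HIF-1 targets outside glycolysis none was called, 4 did not overlap with TH higher and 4 with TH lower, beside 20.2% and 16.0% of all genes tested, and the median of -0.07 was -0.01 without TH2 and 0.02 without YL1. *VEGFA*, the main angiogenic growth factor, ranged from 53.6 to 71.2 FPKM over the 4 libraries, and the groups overlapped. *TFRC*, the transferrin receptor, was at 61.0 and 65.2 against 35.5 and 27.1 (limma adjusted p = 0.168). *BNIP3*, a mitophagy receptor, was at 69.6 and 43.3 against 111 and 103 (log2FC -0.95, limma adjusted p = 0.202). *FGF1*, a heparin-binding growth factor, was at 15.3 and 18.0 against 44.7 and 21.2 (log2FC -0.86, limma adjusted p = 0.347), and the 18 VEGF, angiopoietin and FGF genes had a median of 0.15, or 0.37 without TH1 and 0.09 without TH2. *AGT*, angiotensinogen, was at 53.1 and 41.7 against 28.4 and 27.7 (log2FC 0.73, limma adjusted p = 0.244). It was the only one of 5 renin-angiotensin genes that did not overlap with TH higher, beside 20.2% of all genes tested. *ACE*, the converting enzyme, was left out for its YL2 value of 60.4, beside 3.38 and 5.93 in TH and 4.64 in YL1, and is named after its values were seen. The 16 circadian clock genes had a median of -0.39, or -0.18 without TH1 and -0.59 without TH2. None was called, and 6 did not overlap with TH lower, beside 16.0% of all genes tested.

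No marker of endothelial cells, smooth muscle or fibroblasts was called, while many had TH above YL. Of all genes tested 20.2% did not overlap with TH higher, and the counts of these lists stand beside that share. *CLDN5*, an endothelial tight junction protein, was at 32.7 and 32.6 FPKM in TH and at 9.18 and 11.4 in YL (log2FC 1.59, SE 0.213, limma adjusted p = 0.0557). *PECAM1*, an endothelial adhesion molecule, was at 96.8 and 84.5 against 52.0 and 35.7 (log2FC 1.05, limma adjusted p = 0.148). Of 16 endothelial markers 8 did not overlap with TH higher and the median was 0.45, yet the summed FPKM of the list was 610 and 675 in TH and 444 and 385 in YL against 555 to 635 in TL and YH. *TAGLN*, a smooth muscle actin-binding protein, was at 146 and 131 against 40.4 and 42.3 (log2FC 1.72, limma adjusted p = 0.0557), and *CNN1*, calponin, at 132 and 89.5 against 29.8 and 10.9 (log2FC 2.52, limma adjusted p = 0.189). *DES*, desmin of all muscle, was at 9125 and 5761 against 3510 and 920 (log2FC 2.01, limma adjusted p = 0.243). The 17 smooth muscle and pericyte markers had a median of 0.87, with 9 not overlapping. Of them 4 were apart with TH higher, beside 1.53% of all genes tested.

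*VIM*, the vimentin of fibroblasts and other mesenchymal cells, was at 324 and 337 FPKM in TH and at 89.4 and 97.9 in YL (log2FC 1.81, limma adjusted p = 0.0557). Of the 16 fibroblast markers 5 did not overlap with TH higher, and they had a median of 0.66, which was 1.498 without TH1 and -0.01 without TH2. Their summed FPKM was 669 in TH1 and 1359 in TH2, against 552 and 448 in YL. The part of cell composition in the matrix and scaffold differences was not tested.

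Atrial genes were measured because the heart samples carry no chamber label. Besides *NPPA*, *SLN*, the atrial calcium pump regulator sarcolipin, was at 56.5 and 16.3 FPKM in TH and at 2.74 and 3.52 in YL (log2FC 2.94, limma adjusted p = 0.0926). *MYL7*, the atrial regulatory light chain, was at 4283 and 3207 in TH, 2578 in YL1 and 337 in YL2 (log2FC 1.99, limma adjusted p = 0.355). All 9 atrial genes had a log2FC above 0 with a median of 0.66, or 1.40 without YL1, and 6 did not overlap, beside 20.2% of all genes tested. *KCNJ3* and *MYH6*, also more abundant in atria, overlapped between the groups. Summed FPKM over the 12 atrial genes in the table was 6692 and 5460 for TH and 2746 and 452 for YL, with 898 to 2760 over the other 4 libraries. The 18 ventricular sarcomere genes had a median of 0.37, or -0.41 without YL2, 0.08 without TH1 and 1.003 without YL1. The part of the sampled chamber in the *NPPA* and *NPPB* values was not tested. *TNNT1*, slow skeletal troponin T, was at 339 and 249 against 124 and 19.2 (log2FC 2.53, limma adjusted p = 0.211).

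The study singled out 21 genes linked to hypoxia and 8 genes for RT-qPCR from these same samples, so neither list is independent evidence of a direction. Of the 21, *NPPA* and *FOS* rose, *DPP4* fell, 12 were apart with TH higher and 2 with TH lower, and the median log2FC was 1.93. Over all genes tested 0.168% were called higher and 0.0588% lower, and 1.53% were apart with TH higher and 0.655% with TH lower. Among the rest, *CCL5*, a T cell chemokine, was at 28.2 and 13.6 FPKM in TH and at 24.4 and 26.1 in YL (log2FC -0.35, limma adjusted p = 0.634). Of the 8, *FOS* rose, *DPP4* and *SLA-5* fell, and 4 were apart with TH lower, beside the same shares of all genes tested.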

How the data were processed

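RNA of heart was pooled from 4 pigs per library, and 2 libraries per group were sequenced. The authors mapped reads to Sscrofa10.2 with TopHat2 2.0.9 and Bowtie 0.12.5, per the submitters' processing notes, and deposited FPKM per gene and library. Beside it they deposited a signal, reads scaled by 1 factor per library. Dividing this signal by its step gave whole reads for 99.8% of low values (within 0.02 of a whole number, up to 50 steps), used only for depth and for reads per gene. The 8 deposited group mean and ratio columns were not used. Groups follow the sample titles, which match the source names and the column names. The descriptions of YL1 and YL2 instead name the table of TL, a conflict in the labels that bears on every YL value.

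FPKM was taken as log2(FPKM + 1). On this scale a fold change understates that of genes with low values. limma 3.58.1 in R 4.3.3, with a trend on the mean, was fitted to all 8 libraries with a mean per group, over 11913 genes that reached 1 FPKM in 2 or more libraries. TH minus YL was tested with Benjamini-Hochberg adjustment over these genes. In simulated data 63% of 200 genes changed by a log2FC of 2 were called beside 9 unchanged genes. At 3 the test called 90.5% beside 10 unchanged genes. Whether these rates hold for the deposited libraries was not tested. Array weights of those libraries were 0.46 in TH and 0.362 in YL, beside 3.2 in TL and 1.87 in YH.

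The members and gene lists were chosen with earlier results of these data known. Genes were named by rule from those with at least 20 reads in at least 2 of the 4 libraries: the 15 called with the largest change in each direction, filled up to 15 with genes apart where under 10 were called, the called and the 6 most abundant members of each list, and the genes the study singled out. Lists are described by counts and medians without a test. Positions are the loci of the table. Alternatives were another pseudocount, filters, scalings, models, thresholds, a replicate term and each library left out. Python 3.11.15, pandas 2.3.3 and matplotlib 3.10.9 made tables and plots.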

Additional observations from a re-analysis of the deposited data

How the results depend on the processing

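The calls depended on the processing. Beside 20 higher and 5 lower, the test gave 12 and 3 with no filter on low values, 4 and 0 with array weights, 4 and 0 with only the 4 libraries fitted, 6 and 0 at an adjusted p under 0.01, 38 and 8 with p-values adjusted over the 10156 genes alone, and 311 and 95 at an unadjusted p under 0.01. Median-ratio scaling gave 12 higher, and scaling to an equal FPKM sum gave 19 lower. Leaving out each library in turn gave 3 to 487 higher and 0 to 194 lower. On scaled reads without YL2, chosen after seeing the data, there were 32 and 20. Replicate numbers do not pair the pools (r = 0.149 between same-numbered TH and YL deviations), and with a replicate block there were 11 and 0. Genes apart were 281 and 64 at a pseudocount of 0.1, and 2347 and 1419 apart by any amount. The planned edgeR and DESeq2 tests on recovered reads were not run, since a few values in 7 of the 8 libraries lie below the step taken as 1 read.

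Scaling to an equal FPKM sum turned the log2FC of *NPR1* to -0.056, *NPR3* to -0.062, *TGFB1* to -0.004, *COL3A1* to -0.253 and *AGT* to -0.206. With a library left out *COL3A1* ranged from -1.053 to 2.122 and *CCL5* from -0.848 to 0.152. Relative to the median of all 10156 genes, that scaling turned the medians of the chaperones to -0.193, of the proteasome to -0.042, of the HIF-1 targets to 0.050 and of the renin-angiotensin genes to 0.010. With a library left out the glycolysis median ranged from -0.188 to 0.334 and the renin-angiotensin median from -0.264 to 0.084. The cause was not tested. Depth limits genes with few reads, of which 375 had under 20 reads in 3 or more of the 4 libraries.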
